A study of Mus musculus with 24 samples.

Results

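The 8 mouse genes of the pentose phosphate pathway were followed in the kidney after myocardial infarction (MI): Tkt, Pgd, Taldo1, G6pdx, Pgls, Rpia, Rpe and H6pd. All 8 were found among the 56941 genes of the count table. Tkt and Pgd were chosen by their lower counts in kidneys of infarcted mice than in sham kidneys, known from earlier results of these data, so their differences from sham are given as a description without a test. The other 6 genes complete the pathway. The libraries are of the MACE type (Massive Analysis of cDNA Ends), in which fragments of 3′ mRNA ends are read and PCR copies are removed through unique molecular identifiers. The mice were young adult male wild-type animals of the C57BL/6J strain, either sham-operated (n = 8, kidney taken 5d after surgery) or infarcted by a lasting tie of the left coronary artery's anterior descending branch (LAD) without reperfusion, with the kidney taken after 5d (n = 8 of 9) or 28d (n = 6 of 7). The kidneys left out are the 5d and the 28d kidney whose column in the table could not be assigned to a sample. Because no sham kidneys were taken at 28d, the infarction and the longer time after surgery cannot be told apart in the 28d comparison.

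The pathway branches off glycolysis at glucose 6-phosphate. In its oxidative branch, glucose-6-phosphate dehydrogenase (G6pdx in the cytosol, H6pd in the endoplasmic reticulum), 6-phosphogluconolactonase (Pgls) and 6-phosphogluconate dehydrogenase (Pgd) turn the sugar into ribulose 5-phosphate and produce NADPH. In its non-oxidative branch, ribose-5-phosphate isomerase (Rpia), ribulose-5-phosphate epimerase (Rpe), transketolase (Tkt) and transaldolase (Taldo1) rearrange the carbon chains and return them to glycolysis. NADPH is used in fatty acid synthesis and for the reduction of glutathione, and ribose phosphate for nucleotides. Adipose tissue that makes fatty acids is known for a high activity of this pathway, and fat surrounds the kidney and fills its sinus.

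The sequence before the transcription start is shown for Tkt and Pgd, the genes that differed most from sham, and for Taldo1 and G6pdx, whose levels varied with Tkt or with adipocyte markers. The 250 bases are from the RefSeq promoter table of build GRCm38.p6, are written 5′ to 3′ on the strand of the gene, and end at the base before the start. Tkt lies on the plus strand (chr14:30548881-30549130), Taldo1 on the plus strand (chr7:141391910-141392159), Pgd on the minus strand (chr4:149166706-149166955) and G6pdx on the minus strand (chrX:74428881-74429130). Capitals mark the GC box (GGGCGG), the CCAAT box (CCAAT) and the antioxidant response element (TGACNNNGC), each searched on both strands.
Tkt: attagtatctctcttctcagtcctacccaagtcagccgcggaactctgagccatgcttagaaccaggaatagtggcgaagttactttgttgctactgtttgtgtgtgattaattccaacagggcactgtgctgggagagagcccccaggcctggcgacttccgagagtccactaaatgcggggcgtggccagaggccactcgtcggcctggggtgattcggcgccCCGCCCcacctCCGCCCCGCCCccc
Taldo1: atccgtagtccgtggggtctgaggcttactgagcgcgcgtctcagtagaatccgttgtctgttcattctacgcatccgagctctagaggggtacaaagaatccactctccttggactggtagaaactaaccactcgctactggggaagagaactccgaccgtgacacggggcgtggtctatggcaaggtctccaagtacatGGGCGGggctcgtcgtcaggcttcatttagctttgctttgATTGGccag
Pgd: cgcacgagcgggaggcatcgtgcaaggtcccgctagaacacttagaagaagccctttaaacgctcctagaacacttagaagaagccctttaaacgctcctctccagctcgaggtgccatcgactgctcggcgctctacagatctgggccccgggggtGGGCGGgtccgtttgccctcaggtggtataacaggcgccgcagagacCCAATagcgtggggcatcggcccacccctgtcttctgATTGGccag
G6pdx: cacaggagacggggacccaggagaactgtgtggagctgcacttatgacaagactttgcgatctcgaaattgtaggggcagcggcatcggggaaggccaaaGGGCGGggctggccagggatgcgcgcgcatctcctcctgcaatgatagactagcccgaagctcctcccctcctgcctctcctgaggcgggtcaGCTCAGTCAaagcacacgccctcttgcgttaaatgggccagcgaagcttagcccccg

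A GC box occurred in this window in 7 of the 8 genes, all but H6pd, and in 32.7% of the 32851 promoters of the table. Tkt had 3 of them, at −25, −14 and −9 from the start, of which the last pair overlap in a single base. A CCAAT box occurred in Pgd, Taldo1 and H6pd and in 33.8% of all promoters, and an antioxidant response element in G6pdx, at −57, and in 10.2% of all promoters. The E-box (CACGTG, 6.02% of promoters), the sterol response element (TCACNCCAC, 1.05%), the TATA box (TATAAA, 12.4%) and the PPAR response element (0.0335%) were found in none of the 8 genes. Pgd has another start in the table, whose window held none of these motifs. These matches describe the letters of the window and do not show binding of a factor.

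Total counts per kidney ranged from 2280618 to 3786275, and their medians were 3206756, 3057828 and 2644574 in the sham, 5d and 28d groups. Expression is given as CPM, the counts scaled to a TMM-normalised library of fixed size. Since MACE counts 3′ ends, CPM were not divided by transcript length. Markers of kidney epithelium were abundant in every kidney, with summed levels between 9431 and 11968 CPM. The 4 tested red blood cell markers had estimates above sham at 5d post-MI, and 3 kidneys (sham replicates 2 and 6 and 5d replicate 5) held adrenal cortex transcripts, with 81.7 CPM or more of the summed markers against 10.5 or less in the remaining kidneys.

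Among the 8 genes, Taldo1 was the most abundant in sham kidneys, with 362 ± 20.0 CPM (SD, n = 8). Tkt followed with 181 ± 29.4 CPM, H6pd with 153 ± 5.03 CPM, Pgd with 147 ± 20.9 CPM and Pgls with 115 ± 4.12 CPM. G6pdx, the entry enzyme, had 28.3 ± 3.70 CPM, Rpia 21.7 ± 3.42 CPM and Rpe 8.19 ± 2.11 CPM (SD, n = 8 for each). The sham range of Taldo1 did not overlap with that of Tkt, nor did Pgls with G6pdx or Rpia with Rpe. The ranges of Tkt, H6pd, Pgd and Pgls overlapped between neighbours in this order, as did those of G6pdx and Rpia. All 8 genes together summed to 1016 ± 62.0 CPM in the sham group (n = 8), to 888 ± 74.9 CPM in the 5d group (n = 8) and to 892 ± 39.5 CPM in the 28d group (SD, n = 6). The share of Tkt in this sum was 17.7% ± 1.92 in sham kidneys, 14.7% ± 1.92 at 5d and 13.5% ± 1.40 at 28d post-MI (SD, n = 8, 8 and 6).

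**Figure D1:**
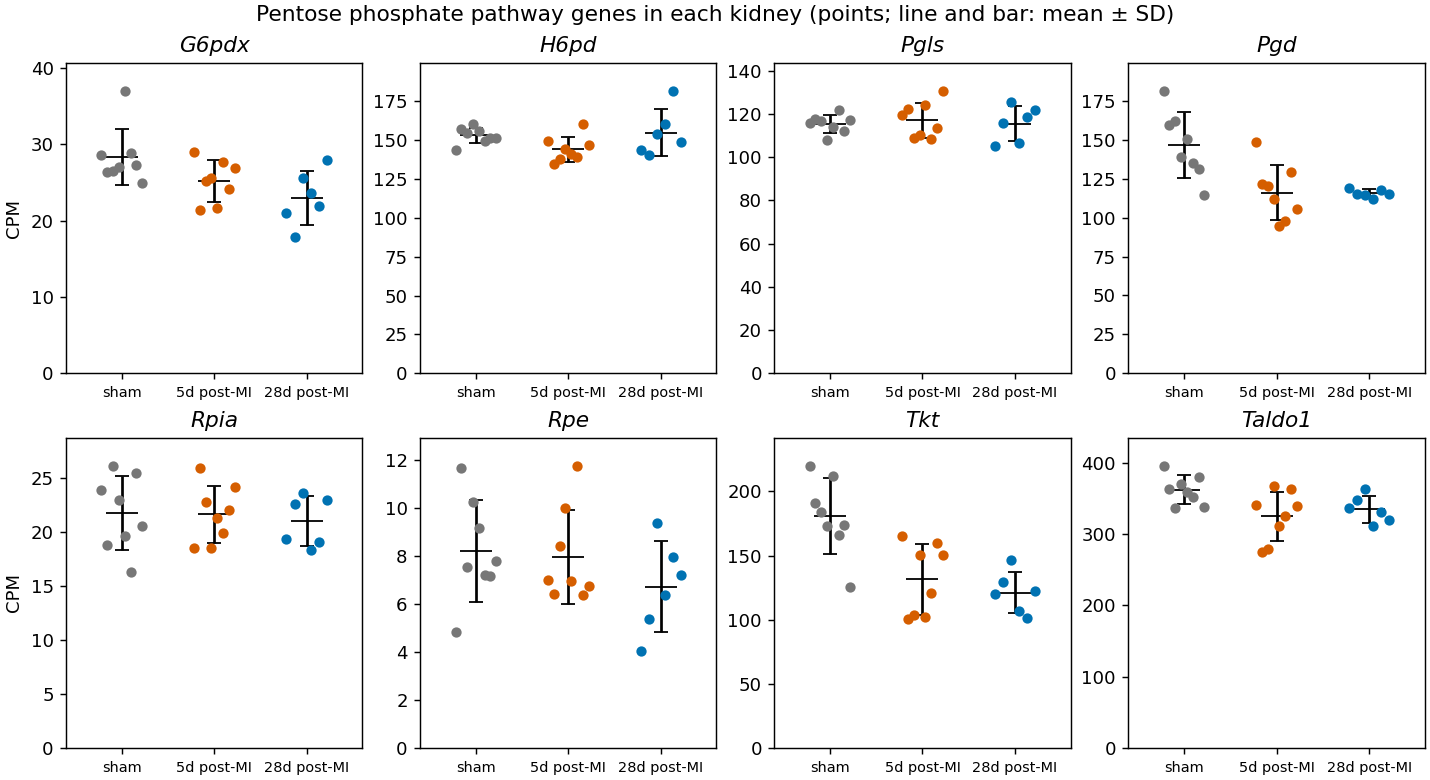
Expression of the 8 pathway genes in each kidney (y axis, CPM, starting at 0), with the oxidative branch in the upper row and the non-oxidative branch in the lower row. Points are kidneys, and the line and bar give the mean and SD of 8 sham, 8 5d post-MI and 6 28d post-MI kidneys. Tkt and Pgd lie lower after MI, with ranges that overlap those of sham kidneys, while all Rpia values after MI lie within the sham range.

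Kidneys of infarcted mice had less Tkt and Pgd mRNA than sham kidneys on average at both times, and the estimates of the remaining genes were closer to 0. Tkt, the transketolase, was at 125, 179 and 220 CPM in the lowest, median and highest of the 8 sham kidneys. At 5d post-MI the corresponding values were 100, 135 and 165 CPM, and at 28d post-MI 101, 121 and 146 CPM. All 8 kidneys at 5d and all 6 at 28d were below the sham mean, and 4 kidneys at each time were below every sham kidney, while the ranges overlapped through sham replicate 8, the lowest sham kidney. The log2 fold change of Tkt was −0.46 (standard error 0.13) at 5d and −0.58 (standard error 0.14) at 28d post-MI. The mean thus reached 72.7% and 67.0% of the sham mean.

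Pgd, which forms NADPH and ribulose 5-phosphate in the last oxidative step, was at 115, 145 and 181 CPM in the lowest, median and highest sham kidney. The values were 94.9, 116 and 148 CPM at 5d and 112, 115 and 119 CPM at 28d post-MI. Below the sham mean were 7 of 8 kidneys at 5d and 6 of 6 at 28d, and below every sham kidney 4 and 2 of them. The log2 fold change was −0.34 (standard error 0.08) at 5d and −0.34 (standard error 0.09) at 28d post-MI, with means at 79.2% and 78.9% of the sham mean. The 6 kidneys at 28d post-MI differed little in Pgd, with a coefficient of variation of 2.15% against 14.2% in sham kidneys. This is less than the 5.68% that counting error alone gives at their mean of 310.5 counts, so that the narrow range says nothing about how evenly the gene was expressed.

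None of the 6 genes that were not picked was a differentially expressed gene (DEG) in either comparison with sham, where edgeR's quasi-likelihood test called 0.0704% of 12780 tested genes at 5d and 0.0235% at 28d post-MI. In the comparison at 5d, 7 of all 8 genes had a log2 fold change below 0, as had 49.9% of all tested genes, and their median was −0.12 against 0.00018 over all genes. At 28d, 6 of 8 were below 0, against 50.4% of all genes, with a median of −0.20 against −0.0012. Since Tkt and Pgd were picked for being lower, these counts describe the list and support nothing. Of the 6 genes not picked, Taldo1 at 5d and G6pdx at 28d had an unadjusted p-value under 0.05 in edgeR, against 7.9% and 8.68% of all tested genes, and none of the 6 was called by DESeq2 or limma voom. Both comparisons use the same sham kidneys. Without sham replicate 8, the log2 fold changes at 5d and 28d post-MI were −0.52 and −0.64 for Tkt and −0.38 and −0.39 for Pgd.

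In the oxidative branch, G6pdx had log2 fold changes of −0.16 (standard error 0.09, adjusted p = 0.712 from edgeR) at 5d and −0.30 (standard error 0.11, adjusted p = 0.377 from edgeR) at 28d post-MI. Its range was 25.0 to 36.9 CPM in sham kidneys, 21.3 to 29.0 CPM at 5d and 17.9 to 27.9 CPM at 28d post-MI, with medians of 27.1, 25.4 and 22.7 CPM. At 28d, 4 of 6 kidneys were below every sham kidney. H6pd, the enzyme of the endoplasmic reticulum, ranged from 144 to 160 CPM in sham kidneys, from 134 to 160 CPM at 5d and from 140 to 181 CPM at 28d post-MI. Its log2 fold changes were −0.09 (adjusted p = 0.712 from edgeR) and 0.02 (adjusted p = 0.971 from edgeR). Pgls, the lactonase between G6pdx and Pgd, ranged from 108 to 122 CPM in sham kidneys, from 108 to 130 CPM at 5d and from 105 to 126 CPM at 28d post-MI. With log2 fold changes of 0.02 (95% interval −0.08 to 0.12) and 0.00 (−0.11 to 0.11), its mean was at 101.5% and 100.2% of the sham mean.

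In the non-oxidative branch, Taldo1, the partner of transketolase in carbon exchange, ranged from 337 to 395 CPM in sham kidneys, from 274 to 367 CPM at 5d and from 311 to 363 CPM at 28d post-MI. At each time, 4 kidneys were below every sham kidney. It differed from sham by a log2 of −0.16 (standard error 0.05, adjusted p = 0.431 from edgeR) at 5d and of −0.11 (standard error 0.06, adjusted p = 0.599 from edgeR) at 28d post-MI. Rpia ranged from 16.3 to 26.1 CPM in sham kidneys and lay within this range in all kidneys after MI, with log2 fold changes of −0.01 (95% interval −0.21 to 0.19) and −0.05 (−0.27 to 0.17). Rpe, with 10 to 39 counts per kidney the least sampled of the 8 genes, had log2 fold changes of −0.02 (95% interval −0.37 to 0.32) and −0.28 (−0.67 to 0.11). The interval at 28d is wide enough to hold a difference of the size seen in Tkt.

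**Figure D2:**
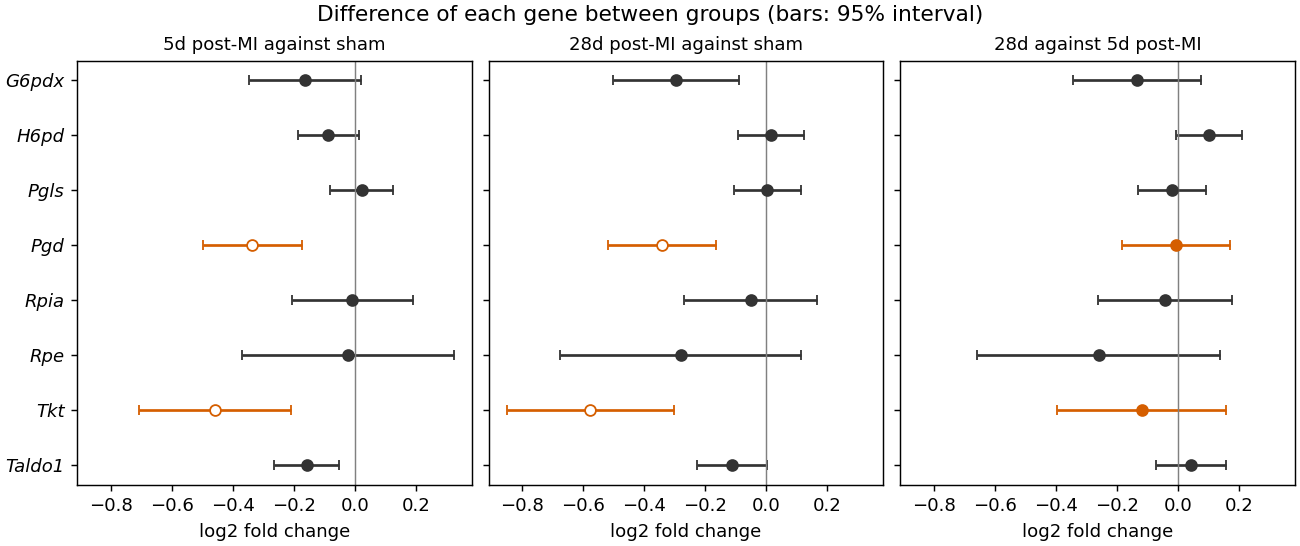
Log2 fold change (x axis) of each pathway gene (y axis) in the 3 comparisons, with bars of the 95% interval. Tkt and Pgd are coloured, and their open symbols mark the comparisons with sham in which they were picked and are not tested. Between the infarcted groups, the bars of all 8 genes include 0.

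Between the infarcted groups themselves, none of the 8 genes was a DEG, where 0.415% of the 12780 tested genes were called. None had an unadjusted p-value under 0.05, against 9.05% of all genes, and 6 of 8 had a log2 fold change below 0, against 51.4%. Tkt and Pgd were not picked by this comparison, but by lower values than sham in both infarcted groups. For these genes the test is therefore not independent of their choice. Tkt differed by a log2 of −0.12 between 28d and 5d post-MI (95% interval −0.39 to 0.16, adjusted p = 0.881 from edgeR) and Pgd by −0.01 (−0.18 to 0.17, adjusted p = 0.997 from edgeR). The estimates of the other 6 genes lay between −0.26 for Rpe and 0.10 for H6pd, with adjusted p-values of 0.604 or more from edgeR. The intervals leave room for differences between the times of up to 0.39 in Tkt and 0.18 in Pgd on the log2 scale.

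The 8 genes varied to a different degree among kidneys of the same group. The SD of log2 CPM within groups was 0.26 for Tkt, above that of 94.6% of the genes of like abundance, whose median SD was 0.12. For Pgd it was 0.18, above 86.4% of such genes. Pgls, with an SD of 0.09, was above 10.1% of the genes at its level, and H6pd, likewise at 0.09, above 19.1%. Taldo1 (0.12, above 56.9%), G6pdx (0.18, above 33.5%), Rpia (0.19, above 30.6%) and Rpe (0.35, above 63.5%) were closer to the middle of their peers. Within groups, Tkt and Pgd were thus the members with the widest spread for their abundance.

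Kidneys with more Tkt than their group's mean also had more Taldo1. After the group means were subtracted, the correlation of Tkt and Taldo1 over 22 kidneys was r = 0.78 (Spearman's rho = 0.77, permutation p = 9e-05 and 0.00022, adjusted p = 0.00252 over 28 pairs of members), and r was 0.74 without the 2 kidneys farthest from the median of Tkt. For Tkt and Pgd, r was 0.59 (rho = 0.51, permutation p = 0.0118 and 0.0339, adjusted p = 0.166), and for Tkt and G6pdx 0.47 (rho = 0.46, permutation p = 0.0273 and 0.0398, adjusted p = 0.254). The other 25 pairs had adjusted p-values of 0.83 or more by the same permutation test.

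Estimates of the adipocyte markers were below 0 along with those of Tkt and Pgd. Of the 12 markers, all had counts in each group, and 10 could be tested. All 10 had a log2 fold change below 0 against sham at both times, against 49.9% and 50.4% of all tested genes. The medians were −0.50 and −0.87, although none was a DEG. An unadjusted p-value under 0.05 in edgeR was found for 2 of the 10 at 5d, against 7.9% of all tested genes, and for 5 at 28d, against 8.68%. The summed level of the 12 markers ranged from 509 to 2354 CPM in sham kidneys (median 1451), from 231 to 1816 CPM at 5d (median 1260) and from 482 to 1274 CPM at 28d post-MI (median 685). The lowest p-values belonged to Pparg (−0.70) and Retn (−0.84) at 5d, and to Plin1 (−1.48), which coats the lipid droplet, and Fabp4 (−1.08), a fatty acid carrier of adipocytes, at 28d post-MI (adjusted p = 0.564, 0.570, 0.335 and 0.462 from edgeR). In these bulk samples, fewer cells of a type and less RNA per cell cannot be told apart.

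Tkt followed the adipocyte score, the mean log2 CPM of these markers, from kidney to kidney. With group means subtracted, r was 0.80 and rho 0.72 over 22 kidneys (permutation within groups, p = 9e-05 and 0.00117, adjusted p = 0.0018 and 0.00702 over 24 relations of 8 members with 3 scores). Within groups, r was 0.93 in sham kidneys, 0.77 at 5d and 0.65 at 28d post-MI (n = 8, 8 and 6), and over all it was 0.73 (adjusted p = 0.0352 by permutation) without the 2 kidneys farthest from the median score. The 5d kidneys of replicates 2, 3 and 6, with 482, 440 and 231 CPM of adipocyte markers, had 100, 103 and 102 CPM of Tkt. In sham replicates 1 and 5, with 2354 and 2320 CPM of markers, Tkt was at 220 and 212 CPM, and in sham replicate 8, with 509 CPM of markers, at 125 CPM. Not all kidneys kept this order. Replicate 7 had the most markers in the 5d and in the 28d group, with 1816 and 1274 CPM. Its Tkt was at 121 and 123 CPM, where the highest kidneys of these groups had 165 and 146 CPM.

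G6pdx also followed the adipocyte score (r = 0.64, rho = 0.69, permutation p = 0.0007 and 0.00035, adjusted p = 0.0056 and 0.0042), with 0.67, 0.77 and 0.60 within sham, 5d and 28d kidneys and 0.58 without the 2 farthest kidneys (adjusted p = 0.0352 by permutation). For Taldo1, r was 0.53 (rho = 0.50, permutation p = 0.0377 and 0.0357, adjusted p = 0.118 and 0.14). For Pgd it was 0.39 (rho = 0.22, permutation p = 0.129 and 0.381, adjusted p = 0.282 and 0.607) and rested on the 2 farthest kidneys, without which it was 0.02. Within the groups, Pgd had r = 0.86 in sham kidneys, 0.14 at 5d and −0.12 at 28d post-MI, and a difference between these values was not tested. Pgls, Rpia, Rpe and H6pd had r between −0.10 and 0.16 with the adipocyte score (adjusted p of 0.65 or more by permutation).

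The brown adipocyte markers (Ucp1, Cidea, Otop1, Kcnk3, Cox8b, Elovl3 and Cox7a1) were also below sham in their estimates. Of the 7, 6 could be tested, and all 6 had a log2 fold change below 0 at both times, with medians of −0.66 at 5d and −2.09 at 28d post-MI. An unadjusted p-value under 0.05 was found for 2 of them at 5d, against 7.9% of all tested genes, and for 6 at 28d, against 8.68%. None of the 6 was a DEG. Otop1 had −2.25 at 28d (adjusted p = 0.19 from edgeR). Their summed level ranged from 77.4 to 474 CPM in sham kidneys, from 58.9 to 357 CPM at 5d and from 70.0 to 159 CPM at 28d post-MI. Kcnk3 was at 61.2 and 48.2 CPM in sham replicates 2 and 6, the sham kidneys with adrenal cortex transcripts. In the other sham kidneys it was at 18.6 CPM or less. Whether adrenal transcripts had a part in its lower level after MI was not tested. The part of the brown adipocyte markers in the differences of the members from sham was not tested either.

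With the brown adipocyte score, Tkt had r = 0.79 (rho = 0.79, permutation p = 0.00015 and 0.00016, adjusted p = 0.0018 and 0.00384) and 0.71 without the 2 farthest kidneys. No other member passed the adjustment of r with this score, while Taldo1 and G6pdx passed that of rho. Taldo1 had r = 0.61 (rho = 0.72, permutation p = 0.00984 and 0.00075, adjusted p = 0.059 and 0.006), and 0.69 without the 2 farthest kidneys (adjusted p = 0.0352 by permutation). G6pdx had r = 0.49 (rho = 0.56, permutation p = 0.0172 and 0.00829, adjusted p = 0.0824 and 0.0398), and 0.37 without the 2 farthest kidneys (adjusted p = 0.316 by permutation). None of the 8 members passed it with the leukocyte score, where r was 0.26 for Tkt and 0.29 for Pgd (adjusted p = 0.496 and 0.472 by permutation). The summed leukocyte markers ranged from 260 to 313 CPM in sham kidneys, from 222 to 340 CPM at 5d and from 239 to 329 CPM at 28d post-MI. Of the 7 tested leukocyte markers, none was a DEG and 6 had a log2 fold change below 0 at 5d (median −0.34, 4 with an unadjusted p-value under 0.05). At 28d, 4 were below 0 (median −0.05, 1 with an unadjusted p-value under 0.05), and the estimates lay between −0.81 for Ptprc (adjusted p = 0.29 from edgeR) and 0.22 for Csf1r (adjusted p = 0.665 from edgeR). Of all tested genes, 7.9% at 5d and 8.68% at 28d had an unadjusted p-value under 0.05.

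**Figure D3:**
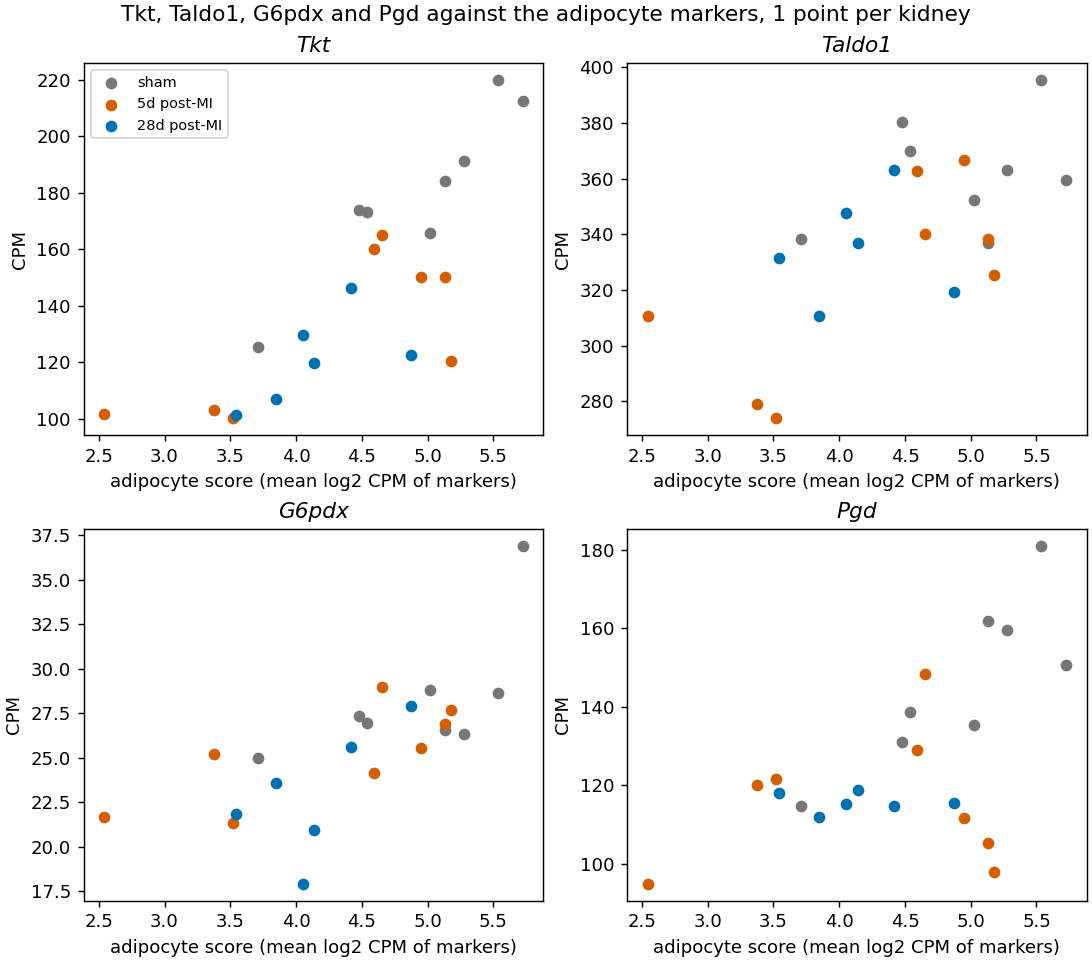
Expression of Tkt, Taldo1, G6pdx and Pgd (y axis, CPM, not starting at 0) against the adipocyte score (x axis, mean log2 CPM of the markers), 1 point per kidney, coloured by group. Within each group, Tkt and G6pdx were positively correlated with the score, but not every kidney kept this order. Pgd of the 6 28d post-MI kidneys lies between 112 and 119 CPM, a spread below that of counting error alone.

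With the adipocyte score as a covariate in the edgeR model, the log2 fold change of Tkt was −0.27 (standard error 0.08) at 5d and −0.35 (standard error 0.08) at 28d post-MI, against −0.46 and −0.58 without it. That of Pgd was −0.27 (standard error 0.08) and −0.26 (standard error 0.09), against −0.34 and −0.34. For G6pdx, the values were −0.06 and −0.17 with the score (adjusted p = 0.958 and 0.789 from edgeR), against −0.16 and −0.30 without it. The part of the adipocyte transcripts in the differences from sham was not tested.

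The 5 genes most like Tkt over the 22 kidneys, with group means subtracted and among 12772 tested genes, were Fasn (r = 0.95), Acaca (r = 0.93), Thrsp (r = 0.93), Scd1 (r = 0.90) and Mrap (r = 0.89). Fasn encodes fatty acid synthase, Acaca acetyl-CoA carboxylase and Scd1 a fatty acid desaturase. These 5 genes themselves had r between 0.83 and 0.95 with the adipocyte score. Fasn ranged from 148 to 1042 CPM in sham kidneys, from 71.5 to 472 CPM at 5d and from 135 to 285 CPM at 28d post-MI. For Pgd, the most similar genes were Hoxc4 (r = 0.77), Oxa1l (r = 0.75), Zdhhc6 (r = 0.74), Cyb5b (r = 0.73) and Appl2 (r = 0.72), with r between 0.12 and 0.44 with the adipocyte score. The 5 genes nearest to Tkt and the 5 nearest to Pgd had no gene in common. Both sets are the highest of 12772 correlations, none of these r was tested, and high values are found by selection alone among so many genes. Hoxc4 was also sparsely sampled, with a mean of 4.07 CPM in sham kidneys.

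Fatty acid synthesis, which consumes NADPH, was represented by 13 genes, most of them with estimates below 0 after MI. All 13 were tested, 13 had a log2 fold change below 0 at 5d (median −0.43) and 11 at 28d post-MI (median −0.72), and 8 had an unadjusted p-value under 0.05 at each time, against 7.9% and 8.68% of all tested genes. None was a DEG. Slc25a1, the mitochondrial citrate carrier, had log2 fold changes of −0.35 and −0.35 (adjusted p = 0.333 and 0.335 from edgeR), and Acly, which splits the exported citrate, of −0.74 and −0.72 (adjusted p = 0.307 and 0.335 from edgeR). Between 28d and 5d post-MI the median of the list was −0.08, and Mlxipl (0.20, adjusted p = 0.408 from edgeR) and Scd2 (0.29, adjusted p = 0.672 from edgeR) had its lowest p-values.

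The estimates of other genes of NADPH supply went both ways, in a list that includes the NAD kinases Nadk and Nadk2, which form NADP. Of 11 listed genes, 9 were tested, none was a DEG in any comparison, and 5 of 9 had a log2 fold change below 0 at each time, with medians of −0.01 at 5d and −0.02 at 28d post-MI. An unadjusted p-value under 0.05 was found for 3 of the 9 at 5d, against 7.9% of all tested genes, and for 0 at 28d, against 8.68%. Me3, a mitochondrial malic enzyme, was one of these 3 and is named after its values were seen. Its log2 fold change at 5d was 0.26 (adjusted p = 0.451 from edgeR), with 7 of 8 kidneys above every sham kidney, and 0.05 at 28d (adjusted p = 0.942 from edgeR). Me1, the cytosolic malic enzyme, had a log2 fold change of −0.29 at 5d (adjusted p = 0.444 from edgeR) and of 0.26 at 28d against 5d post-MI (adjusted p = 0.457 from edgeR). Idh1, the cytosolic isocitrate dehydrogenase, had −0.18 at 5d (adjusted p = 0.425 from edgeR) and −0.12 at 28d (adjusted p = 0.600 from edgeR). Nadk, which phosphorylates NAD, had 0.10 at 28d (adjusted p = 0.687 from edgeR), and Aldh1l1, a folate enzyme, 0.14 at 28d against 5d post-MI (adjusted p = 0.486 from edgeR).

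Among glycolytic and fructose phosphate genes, 16 of 18 were tested, with medians of −0.02 and 0.00 against sham and no DEG in any comparison. An unadjusted p-value under 0.05 was found for 3 of them at each time, against 7.9% and 8.68% of all tested genes. Estimates lay between −0.50 and 0.25 at 5d and between −1.27 and 0.26 at 28d post-MI. Hk2, a hexokinase named after its values were seen, had means at 68.1% and 41.3% of the sham mean, with overlapping ranges. Aldoa, the aldolase, had −0.12 at both times (adjusted p = 0.503 and 0.490 from edgeR), Pfkm −0.23 at 28d (adjusted p = 0.527 from edgeR), and Tigar, a fructose bisphosphatase that favours the pentose phosphate pathway, −0.41 at 5d (adjusted p = 0.584 from edgeR). Between the times, Fbp2 differed by −0.40 and Khk, the fructokinase, by 0.12 (adjusted p = 0.232 and 0.534 from edgeR). Of the paralogs of Tkt and the users of ribose phosphate, 9 of 12 were tested, with medians of 0.02 and −0.06. The transketolase-like gene Tktl2 was at 0 counts in all kidneys of the 3 groups and Tktl1 in those at 5d post-MI, where up to 3 counts per kidney would still be possible. In the other groups Tktl1 had 2 counts in total, from 1 sham kidney and 1 kidney at 28d, so the groups did not differ in it. Pgm2 had −0.16 and −0.34 against sham (adjusted p = 0.862 and 0.587 from edgeR) and Dera, an aldolase for deoxyribose phosphate, 0.06 and −0.11 (adjusted p = 0.895 and 0.749 from edgeR), while Prpsap2 and Dera differed by −0.20 and −0.17 between the times (adjusted p = 0.744 and 0.512 from edgeR).

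Of 14 redox genes that use NADPH or are targets of NRF2, 13 were tested, with medians of −0.07 and 0.00 and no DEG in any comparison. Gclc, the catalytic subunit of the glutamate-cysteine ligase that starts glutathione synthesis, had 0.48 at 5d (adjusted p = 0.498 from edgeR) and Prdx1, a peroxiredoxin, −0.07 (adjusted p = 0.725 from edgeR). At 28d, Nqo1, a quinone reductase, had −0.33 and Hmox1, the inducible haem oxygenase, 0.22 (adjusted p = 0.744 and 0.757 from edgeR), and Hmox1 differed by 0.45 between the times (adjusted p = 0.352 from edgeR).

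**Figure D4:**
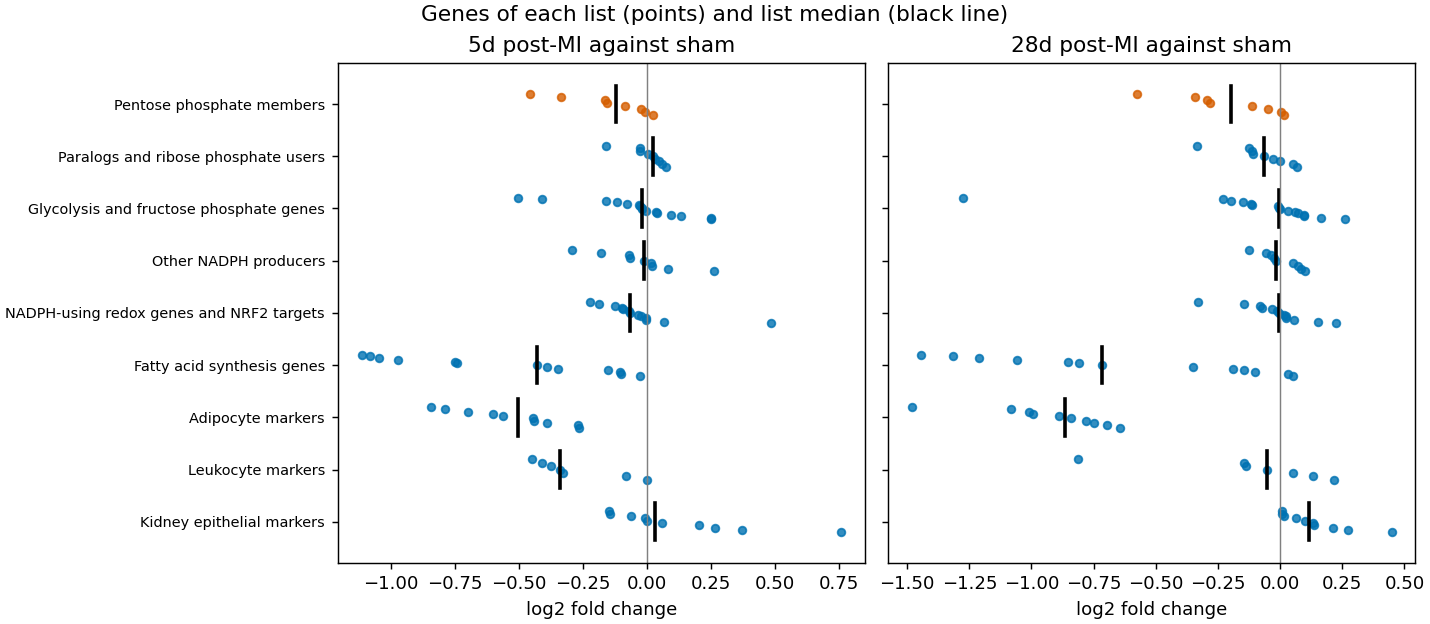
Log2 fold change (x axis) of each tested gene, 1 point per gene, by list (y axis) against sham at 5d (left) and 28d post-MI (right), with the list median as a black line. Fatty acid synthesis genes and adipocyte markers reach medians of −0.43 and −0.50 at 5d and −0.72 and −0.87 at 28d post-MI, and the pathway members −0.12 and −0.20.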

How the data were processed

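Kidney RNA was measured by MACE 3′ sequencing in separate mice. The authors trimmed the reads with Cutadapt, obtained gene counts from HTSeq and deposited these counts, whole numbers, not normalized. The study's methods name mm10, while the submitters' processing notes list mm39 and Bowtie2. The methods give a version of Cutadapt. Annotation, strand setting and the versions of HTSeq and Bowtie2 are not given in the sources used here, so reads of overlapping genes cannot be told apart. Of 48 columns of values, 22 count columns were used. The other 26 hold the authors' normalized values and the counts of 2 kidneys whose columns share a name. The 71 pairs of kidneys within groups differed beyond sampling noise (chi-squared of 1.73 to 7.84 per degree of freedom), so all were kept as separate libraries.

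Genes were kept by filterByExpr of edgeR 4.0.16 (minimum count 10, 12780 of 30116 genes with a count, all 8 members among them), normalized by TMM and fitted with its robust quasi-likelihood model to the 3 groups in R 4.3.3, two-sided, with Benjamini-Hochberg adjustment over all tested genes and a threshold of 0.05. The standard error is that implied by the log2 fold change and its F value, and 95% intervals use the normal quantile. DESeq2 1.42.0 and limma 3.58.1 (voom) were alternatives. Scores are means of log2 CPM (prior count 2), and correlations were tested by 100000 permutations within groups, two-sided (numpy 2.4.6), with 1e-05 as the smallest p they can give. The main edgeR, DESeq2 and limma voom fits were tested on simulated data for the comparisons with sham. The comparison of the times and the other alternatives were not. Gene symbols come from GENCODE M21 (51948 of 56941 identifiers). A gene at 0 counts could have up to 3, for counting error only. With 2280618 to 3786275 counts per kidney, Rpia, at 21.7 CPM in sham kidneys, rests on a mean of 68.1 counts.

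Members, lists and tests were chosen with earlier results of these data known. Named genes are the members, the 2 tested genes of each list with the lowest p-value in each comparison, called genes, the 5 genes most correlated with Tkt and with Pgd, and genes at 0 counts in a group. Alternatives were other scalings, filters, tests, groups in the fit, a replicate block, adipocyte or leukocyte score as covariate, and each kidney left out. Leaving out the 3 kidneys with adrenal transcripts (summed markers over 50 CPM) was chosen after seeing the data.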

Additional observations from a re-analysis of the deposited data

Results flagged for a closer look

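Of 24 combinations of a member and a group, 1 held a kidney far from the others, and chance alone sets apart about 1 in 20 groups. G6pdx was at 36.9 CPM in sham replicate 5, while the other 7 sham kidneys lay between 25.0 and 28.8 CPM. The gap to the nearest kidney took 0.677 of the range, above Dixon's 95% critical value for 8 samples. Sham replicate 5 also had the highest adipocyte score of the 22 kidneys, 5.72. Without it, the log2 fold change of G6pdx was −0.10 at 5d and −0.23 at 28d post-MI (adjusted p = 0.878 and 0.546 from edgeR).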

How the results depend on the processing

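The differences of Tkt and Pgd from sham kept their direction and moved by less than their SD within groups in every alternative. Over the fits that each left out 1 of 22 kidneys, Tkt ranged from −0.52 to −0.41 at 5d and from −0.64 to −0.53 at 28d post-MI, and Pgd from −0.39 to −0.28 and from −0.39 to −0.29. Over the 10 other alternatives, Tkt ranged from −0.51 to −0.27 and from −0.62 to −0.35, and Pgd from −0.35 to −0.27 and from −0.38 to −0.26. None of the other 6 genes was called in any alternative. Depth limits Rpe, with 10 to 39 counts per kidney.

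The number of DEGs at 5d, 28d and 28d against 5d post-MI (9, 3 and 53) was 5, 1 and 51 without TMM, 80, 94 and 160 without a filter (fits of more genes), 36, 33 and 91 in DESeq2, 5, 5 and 50 in limma voom and 2, 31 and 26 with the compared groups alone. It was 1, 4 and 63 with the adipocyte score, 0, 3 and 55 with the leukocyte score as a covariate and 2 and 1 against sham without the 3 kidneys with adrenal transcripts. With each kidney left out, it ranged from 1 to 38, from 0 to 29 and from 41 to 84, with 38 without 5d replicate 1, 0 without 28d replicate 2 or 7 and 29 without sham replicate 8. The cause was not tested.

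Replicate numbers did not pair the kidneys. Same-numbered kidneys of different groups, which are different mice, had correlations of their deviations between −0.13 and 0.09 over 18 pairs, none over 0.1. With the replicate block, 2, 24 and 80 DEGs were found, and Tkt had −0.51 and −0.54 and Pgd −0.32 and −0.34 against sham.

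Signs turned for values near 0. At 5d, Pgls was −0.0174 with the replicate block, and Rpe was 0.0232 with the block, 0.0346 with the adipocyte score and 0.0531 with the leukocyte score. At 28d, Pgls was −0.037 without TMM, −0.0016 with the block and −0.0131 with the leukocyte score, and H6pd −0.0226 without TMM. Between the times, Pgd was 0.0091 in limma voom and 0.0053 with the adipocyte score, and Pgls 0.0158 with the block. With kidneys left out, Pgls ranged from −0.0016 to 0.0387, Rpia from −0.0539 to 0.0311 and Rpe from −0.1283 to 0.0592 at 5d, Pgls from −0.021 to 0.0294 and H6pd from −0.0329 to 0.044 at 28d, and Pgd from −0.0401 to 0.052, Pgls from −0.0431 to 0.0072 and Rpia from −0.0762 to 0.0018 between the times. The correlations of Tkt and Pgd with the adipocyte score stayed on their side of the threshold in both alternatives, at 0.73 and 0.02 without the 2 farthest kidneys and 0.81 and 0.38 without TMM.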

Other observations

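Haemoglobin genes were higher at 5d post-MI than in sham kidneys and lower at 28d than at 5d, and the calls at 5d depended on the setting. Hbb-bt, Hba-a2, Hbb-bs and Hba-a1 had log2 fold changes of 1.53, 1.51, 1.44 and 1.50 at 5d (adjusted p = 0.0423, 0.0356, 0.0423 and 0.0356 from edgeR) and of −1.88, −1.80, −1.75 and −1.78 at 28d against 5d post-MI (adjusted p = 0.00661, 0.00375, 0.00617 and 0.00375 from edgeR). All 4 calls at 5d were lost without any 1 of sham replicates 1 to 7, 5d replicates 2, 7 and 9 or 28d replicates 3, 4 and 6, with the compared groups alone, the replicate block, the adipocyte or the leukocyte score as a covariate, and without the kidneys with adrenal transcripts. The estimates at 5d lay between 1.25 and 1.66 over the 22 fits without 1 kidney and the 10 other alternatives. Between 28d and 5d post-MI all 4 genes were called in the alternatives except with the compared groups alone, where none was. Paralogs among these genes could share reads. No other marker gene reported here was a DEG. The urothelial gene Upk1b had a log2 fold change of −1.41 at 28d (adjusted p = 0.229 from edgeR). Cyp11b2 of the adrenal cortex was at 0 counts in all kidneys of the 3 groups, and Cyp11b1 in those at 28d post-MI. Cyp11b1 had counts in only 2 sham and 2 5d kidneys.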
